A study of Mus musculus with 5 samples.

Results

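The centromere-proximal ends of the mouse autosomes were examined in embryonic stem cells with 4 enriched DNA libraries and 1 input library. The ends were the first 300 kb of assembled sequence, from 3 to 3.3 Mb on chromosomes 1 to 19 of mm9, cut into 1 kb bins, and a bin was a member if any library had a read in it. Of 5700 bins in this range 4923 were members, among 2440090 bins with a read on chromosomes 1 to 19 and X. For comparison, the range from 4 to 6 Mb of the same chromosomes, called the interior below, held 35137 bins with a read among 38000. No autosomal read lay before 3 Mb in any library.

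MethylCap-seq uses a GST-tagged methyl-CpG binding domain (MBD) to capture double-stranded methylated DNA, here 1 µg of DNA with 2 µg of MBD, eluted at 600 mM or 800 mM NaCl. MeDIP-seq and hMeDIP-seq pull down denatured DNA through antibodies, 2 µg in each case, against 5-methylcytosine (5mC, Diagenode) and 5-hydroxymethylcytosine (5hmC, Active Motif). All 4 enriched libraries came from clones of the E14 line of a gene-trap library (SIGTR) at passages 11 to 14, and the sources used here do not give how many clones were used. Input DNA came from chromatin of another line, TNG-A, which derives from E14 and carries EGFP at the Nanog locus, so a difference in copy number between the lines and an enrichment cannot be told apart in a ratio to input. Culture was feeder-free, with serum and LIF (leukaemia inhibitory factor). The files held 10495409 reads of the 600 mM eluate, 7539403 of the 800 mM eluate, 10487251 of MeDIP, 18563204 of hMeDIP and 18722723 of input. With 1 library per group there was no test between conditions, and no difference below has a replicate check.

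Mouse chromosomes are telocentric, so the centromere lies at the very start of each. It is built from minor satellite repeats, flanked by long arrays of major satellite that form pericentric heterochromatin and are rich in methylated CpG. Most of this sequence is missing from the assembly, and what follows it is often a mosaic of segmental duplications and repeats before unique sequence begins. In mammalian cells 5mC is laid down by DNA methyltransferases and oxidised to 5hmC by Tet enzymes. In the order of genes of RefSeq's GRCm38.p6 assembly, which is not the build of the files, the first named protein-coding gene beyond the leading gap was Sfi1 (a centrosomal protein) on chromosome 11, Alkbh8 (a tRNA-modifying enzyme) on chromosome 9, Hnf4g (a nuclear receptor) on chromosome 3, Scaf8 on chromosome 17, Rab10 (a small GTPase) on chromosome 12 and Insr (the insulin receptor) on chromosome 8. Chromosomes 4 and 18 began with vomeronasal receptor genes, and chromosome 16 with the olfactory receptor gene Olfr161. Whether these genes lie within the 300 kb of mm9 was not determined.

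Coverage of the ends was uneven. Input reads per kb were lower at the end than in the interior on 14 of 19 chromosomes, with a median ratio of 0.707 (0.672 to 0.744; intervals throughout are 95% intervals of counting error). On chromosome 14 only 83 of 300 bins had a read, on chromosome 16 136 and on chromosome 19 204, and the first member bin started at 3016001 on chromosome 16 and at 3079001 on chromosome 19. The interior of chromosome 14 was also thin, with 392 input reads in 2 Mb, so its ratios are imprecise. Chromosome 11 stood apart in the other direction, with 16593 of the 45005 input reads of all ends and 55.3 reads per kb against 9.27 in its interior. For all ends summed, input was therefore 1.10-fold denser than the interior, but 0.742-fold without chromosome 11. A member bin held a median of 5 input reads, where an interior bin held 7.

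The files mark some reads with a 1 in a column with no stated meaning in the sources used here. Such reads made up 19.6% of input reads at the ends but 7.67% in the interior, and 23.8% and 26.5% of those in the 600 mM and 800 mM eluates. The share in input was 45.2% on chromosome 9, 25.8% on chromosome 11, 25.2% on chromosome 16, 24.0% on chromosome 4 and 22.9% on chromosome 18, and 5.11 to 13.7% on the other chromosomes. MeDIP and hMeDIP held no such read anywhere, so where input is rich in marked reads their ratios to input are lower with these reads kept than without them. Where the marked share is under that of the whole library the ratios are slightly higher, as on chromosome 5, where MeDIP at the end was 1.25-fold with the marked reads and 1.21-fold without. Whether the antibody libraries hold reads of the same kind without the mark is not known. If they do, their ratios to input without the marked reads compare unlike sets of reads. Values are given with all reads unless stated. They are also given without the marked reads for the main results and where these reads change a direction or an order.

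Relative to input, the ends carried more MBD-captured DNA than the interior. The 5hmC antibody gave less at the ends with all reads, and about the same without the marked reads. Summed over all ends, the 600 mM eluate was at 1.33-fold over input (1.31 to 1.35) and the 800 mM eluate at 1.31-fold (1.29 to 1.33). MeDIP was at 1.13-fold (1.12 to 1.15), and hMeDIP at 0.876-fold (0.865 to 0.888). The interior was at 0.929-fold, 0.922-fold, 0.952-fold and 0.991-fold in the same order. Without the marked reads the ends were at 1.26-fold, 1.19-fold, 1.29-fold and 0.999-fold, with MeDIP (1.27 to 1.31) no lower than the 600 mM eluate (1.24 to 1.28) and hMeDIP the lowest of the 4. The interior was then at 0.936-fold, 0.931-fold, 0.945-fold and 0.984-fold. The summed hMeDIP ratio of end to interior was 0.884 (0.871 to 0.897) with all reads. It was 1.02 (1.0003 to 1.03) without the marked reads, so its side of 1 depended on them.

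Chromosomes differed much more than these sums show. Per chromosome, the ratio of the end to the interior, each over input, had a median of 1.20 at 600 mM, 1.09 at 800 mM, 1.11 in MeDIP and 0.853 in hMeDIP. It was above 1 on 13, 11, 11 and 8 of 19 chromosomes. With the marked reads left out the medians were 1.19, 1.06, 1.16 and 0.928. Among chromosomes it ran from 0.583 to 8.05 at 600 mM, 0.479 to 11.6 at 800 mM, 0.402 to 4.88 in MeDIP and 0.403 to 2.04 in hMeDIP. The hMeDIP median was 0.994 when the range from 6 to 8 Mb stood in for the interior, so its deficit at the ends depends on the interior chosen.

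**Figure D1:**
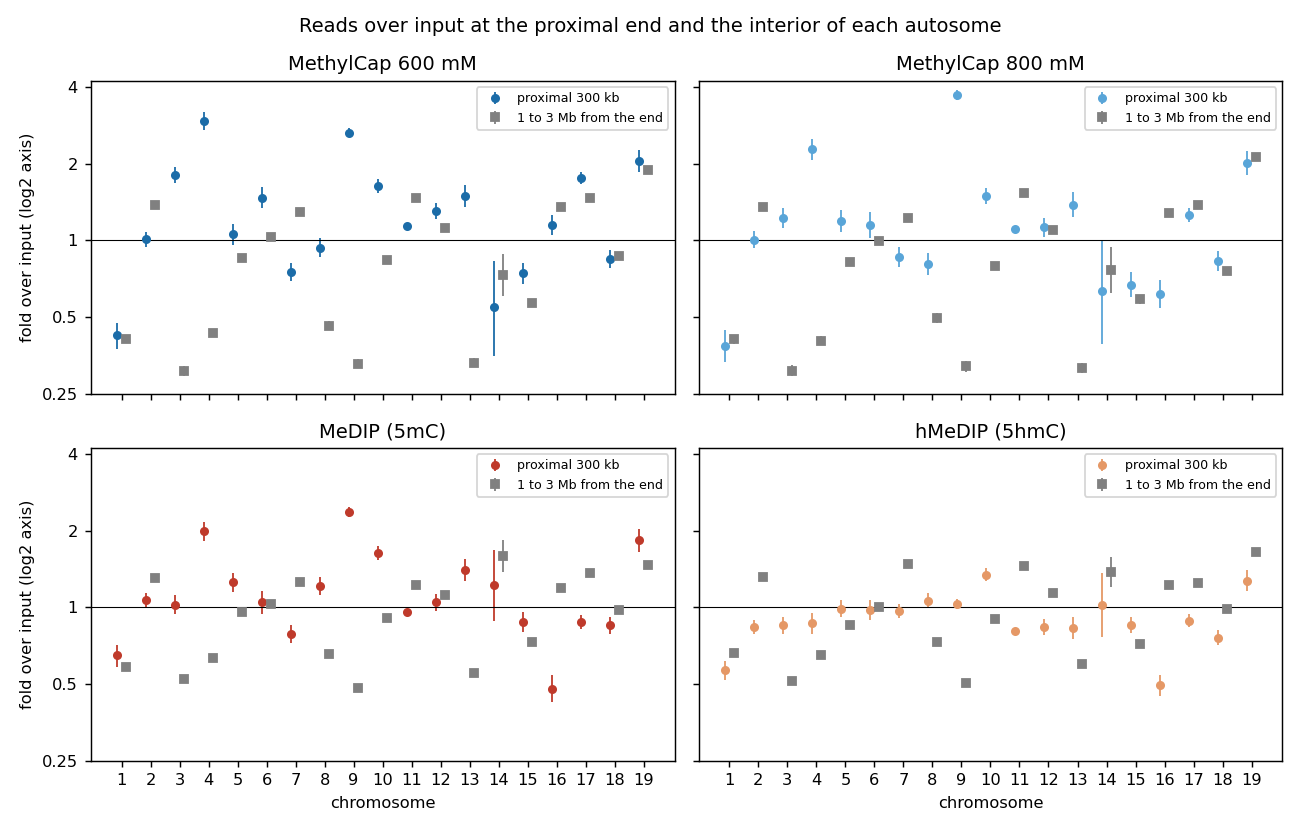
Fold over input (log2 axis) of the proximal 300 kb (coloured circles) and of the interior, 1 to 3 Mb from the end (grey squares), for each autosome in the 4 enriched libraries, 1 library each; bars are 95% intervals of counting error. The 600 mM eluate at the ends ranged from 0.423-fold to 2.94-fold, and hMeDIP stayed between 0.494-fold and 1.34-fold.

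Chromosome 9 had the highest ratio of end to interior in all 4 enriched libraries. Its end held 5385 reads at 600 mM, 5435 at 800 mM, 4817 in MeDIP, 3724 in hMeDIP and 3640 in input. The ratio was 8.05 (7.59 to 8.53) and 11.6 (10.9 to 12.4) in the 600 mM and 800 mM eluates, while for MeDIP it was 4.88 (4.62 to 5.16) and for hMeDIP 2.04 (1.93 to 2.15). Without the marked reads it was 7.13, 9.81, 8.13 and 3.40. Part of the ratio comes from a low interior, which on chromosome 9 was at 0.328-fold over input in the 600 mM eluate and 0.506-fold in hMeDIP, while the end was at 2.64-fold and 1.03-fold.

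Chromosome 4 was next in both eluates and MeDIP, at 6.76 (6.20 to 7.38), 5.62 (5.09 to 6.22) and 3.15 (2.87 to 3.45), but at 1.33 (1.21 to 1.46) in hMeDIP. Leaving out the marked reads gave 5.65, 4.73, 3.89 and 1.64. Chromosome 3 followed in the 600 mM eluate at 5.85 and was second in hMeDIP at 1.65, and chromosome 13 came after 9 and 4 in the 800 mM eluate at 4.38 and in MeDIP at 2.54. In hMeDIP chromosome 10 followed at 1.50, but without the marked reads it was at 1.56, below chromosome 4. Chromosomes 3, 4, 9 and 13 shared an interior poor in MBD-captured DNA, at 0.308-fold to 0.434-fold over input in the 600 mM eluate, and ends between 1.50-fold and 2.94-fold. The interior of chromosome 1 was as poor, at 0.412-fold, but its end was at 0.423-fold and its ratio at 1.03. At the low end of the order were chromosome 7 at 0.583 and chromosome 2 at 0.733 in the 600 mM eluate, and chromosome 16 at 0.479 in the 800 mM eluate, 0.402 in MeDIP and 0.403 in hMeDIP. Chromosome 7 was second lowest in the 800 mM eluate at 0.702 and in MeDIP at 0.627, and chromosome 11 in hMeDIP at 0.556. Without the marked reads chromosome 11 was at 0.689 in hMeDIP, above chromosome 2 at 0.639.

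The antibody to 5hmC brought down less of the ends than that to 5mC. This comparison does not involve the input, and neither antibody library holds a marked read. The ratio of hMeDIP to MeDIP reads was 0.772-fold (0.761 to 0.784) over all ends and 1.04-fold (1.03 to 1.05) over the interior. It was lower at the end than in the interior on 16 of 19 chromosomes, and on 13 the interval of the difference lay below 1. The median of the ratio of end to interior was 0.834 (0.781 to 0.890). Chromosome 9 at 0.418 (0.394 to 0.442), chromosome 4 at 0.421 (0.383 to 0.464) and chromosome 13 at 0.546 (0.489 to 0.609) were lowest. Chromosome 17 was highest at 1.10 (1.03 to 1.18), followed by chromosome 7 at 1.04 (0.951 to 1.13) and chromosome 16 at 1.00 (0.875 to 1.15), the latter pair not separated from 1. With chromosomes 9 and 11 left out, the summed ratio of end to interior was 0.816.

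**Figure D2:**
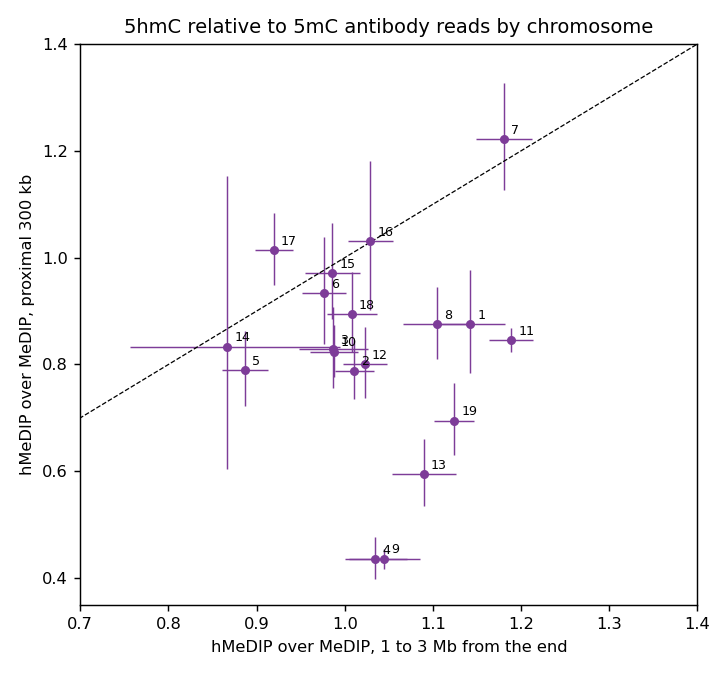
Ratio of hMeDIP to MeDIP, each scaled to its library total, in the interior (x axis) and in the proximal 300 kb (y axis), 1 point per autosome with its number, bars as 95% intervals of counting error and the dashed line at equality. Chromosomes 4 and 9 lie at 0.436 on the y axis, far under the line, and 3 chromosomes (7, 16 and 17) lie above it.

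The same contrast was found when bins were matched for MBD-captured DNA. In bins without a read of the 600 mM eluate, hMeDIP over MeDIP was 1.19 (1.13 to 1.25) at the ends and 1.24 (1.22 to 1.26) in the interior. With 1 to 5 such reads it was 1.01 (0.983 to 1.05) against 1.17 (1.16 to 1.18), with 6 to 20 reads 0.733 (0.708 to 0.758) against 0.949 (0.939 to 0.959), and with 21 to 40 reads 0.593 (0.562 to 0.625) against 0.789 (0.772 to 0.806). In bins with 41 or more reads the values were 0.622 (0.606 to 0.638) and 0.676 (0.649 to 0.705). Without chromosomes 9 and 11 the ends were at 0.667 in bins of 6 to 20 reads, 0.513 in those of 21 to 40 and 0.573 in those of 41 or more. The ratio was thus below 1 in both regions from 6 reads on. In each class with a 600 mM read the ends lay below the interior with separate intervals, while in bins without one the intervals overlapped. The denser classes were not matched in input: MeDIP over input was 1.56-fold at the ends and 4.34-fold in the interior for 21 to 40 reads, and 1.34-fold and 7.66-fold for 41 or more.

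**Figure D3:**
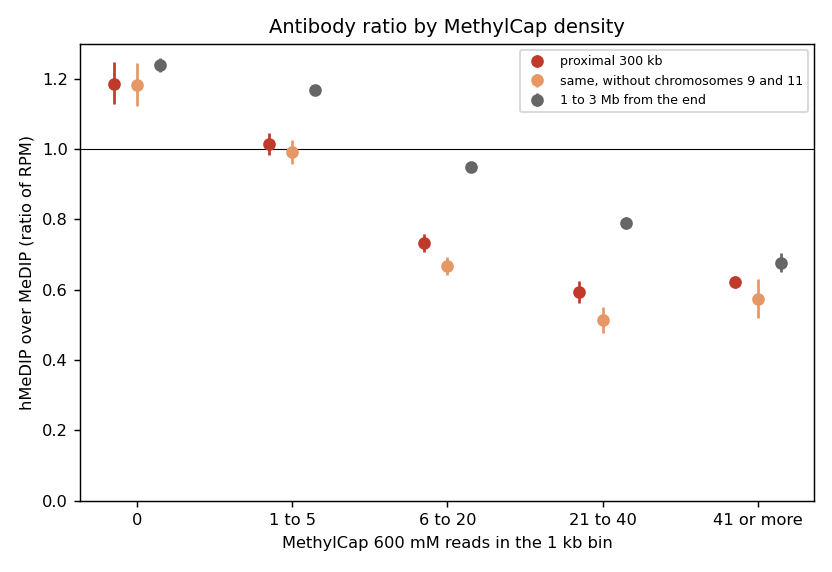
Ratio of hMeDIP to MeDIP, each scaled to its library total, in 1 kb bins grouped by their number of 600 mM MethylCap reads, for the proximal 300 kb, the same without chromosomes 9 and 11, and the interior; bars are 95% intervals of counting error. In bins of 6 to 20 reads the ends are at 0.733 and the interior at 0.949.

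Within the 300 kb, the summed excess of MBD-captured DNA was concentrated in the first 50 kb, a boundary chosen after the values were seen. Summed over the first 50 kb, the 600 mM eluate was 2.28-fold (2.22 to 2.34) and the 800 mM eluate 2.40-fold (2.34 to 2.47) over input. MeDIP was at 1.66-fold (1.61 to 1.71) and hMeDIP at 0.919-fold (0.893 to 0.946). Over the next 250 kb they were 1.07-fold, 1.004-fold, 0.990-fold and 0.865-fold. Leaving out chromosome 9 brought the first 50 kb to 1.94-fold, 1.54-fold, 1.24-fold and 0.875-fold, so this chromosome carried much of the 800 mM and MeDIP excess. Without the marked reads the first 50 kb were at 2.19-fold, 2.08-fold, 2.32-fold (2.25 to 2.40) and 1.29-fold (1.25 to 1.33), and the next 250 kb at 1.06-fold, 1.002-fold, 1.07-fold and 0.938-fold. The side of 1 on which hMeDIP lay in the first 50 kb therefore depended on these reads, while hMeDIP over MeDIP, which does not involve them, was 0.554 (0.538 to 0.571) there and 0.873 (0.857 to 0.889) in the next 250 kb. Of 17 chromosomes with at least 5 input reads in the first 50 kb, 5 were at 3-fold or more in each eluate (chromosomes 3, 4, 9, 12 and 17), 1 in MeDIP (chromosome 12) and none in hMeDIP, whose highest value was 1.40-fold. Chromosomes 4 and 9 joined chromosome 12 in MeDIP once marked reads were left out, at 4.57-fold and 6.52-fold, and the highest hMeDIP value was 2.42-fold on chromosome 9. Averaged over the next 250 kb no chromosome reached 3-fold in any of the 4 libraries, but shorter windows did. In 25 kb windows, the 600 mM eluate was at 3-fold or more on 5 chromosomes at 0 to 25 kb and 5 at 25 to 50 kb. It was so on 3 at 50 to 75 kb and on 1 or 2 in each later window. With all reads the median over chromosomes at 600 mM did not peak in the first 50 kb, at 1.24-fold, 1.24-fold and 1.36-fold in these first windows. Without the marked reads these medians were 1.30-fold, 1.25-fold and 1.23-fold, with the highest of all 25 kb windows at 0 to 25 kb. In the 600 mM eluate 12 of the 17 chromosomes were higher in the first 50 kb than in the next 250 kb and 5 were lower. Outside the 5 at 3-fold or more the differences were smaller, as on chromosome 5 (1.98-fold against 0.974-fold) and chromosome 11 (1.30-fold against 1.09-fold), and chromosome 8 had 2 reads in the first 50 kb against 21 of input.

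**Figure D4:**
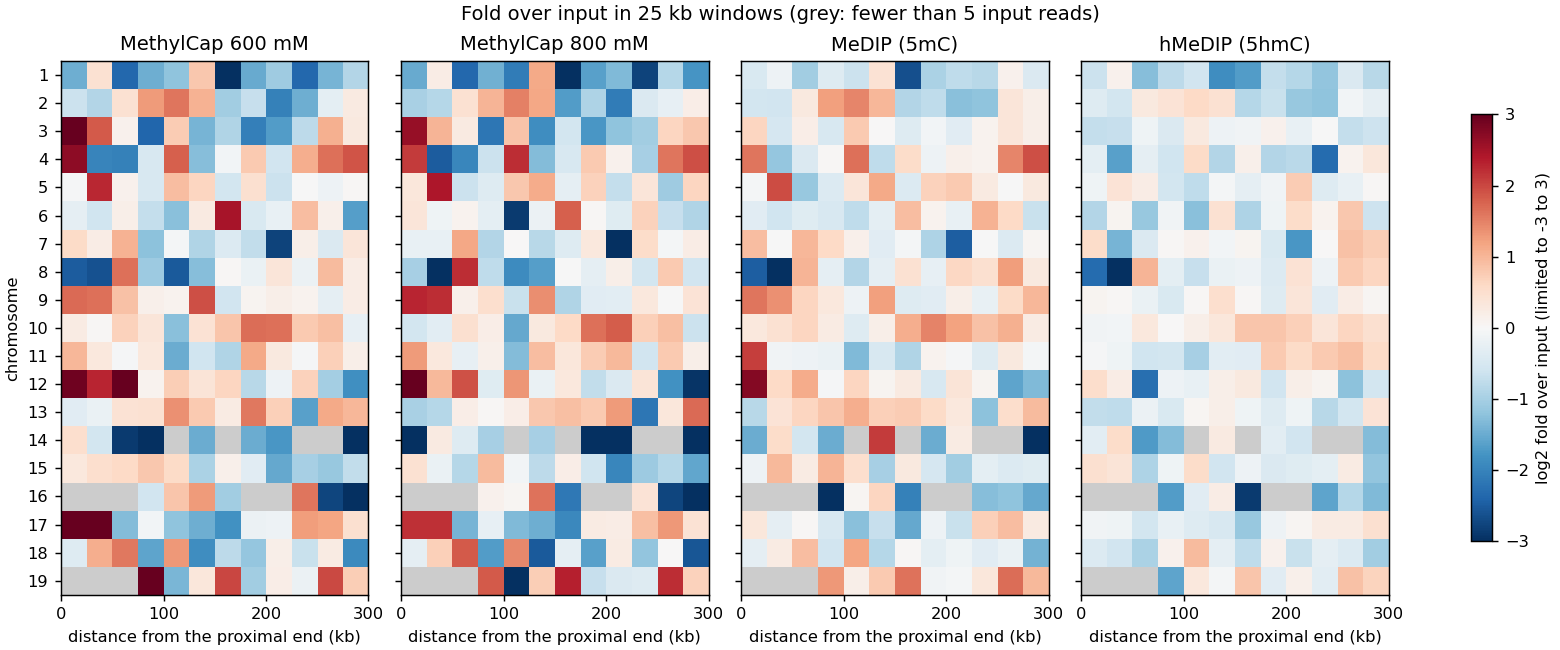
Fold over input in 25 kb windows (columns, distance from the start of the assembled sequence) of each autosome (rows) in the 4 enriched libraries, on a log2 colour scale, with windows of fewer than 5 input reads in grey. In the first 25 kb, 5 chromosomes were at 3-fold or more in each eluate, 4 in MeDIP and 0 in hMeDIP.

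Among the chromosomes with strong capture at the very start, those with little MeDIP signal and those with much of it could be told apart. The exception was chromosome 4, where parts of the start differed in MeDIP signal. Chromosomes 3 and 17 showed the first kind. Over the first 34 kb of chromosome 3 there were 931 reads of the 600 mM eluate, 307 of the 800 mM eluate, 103 of MeDIP, 76 of hMeDIP and 130 of input. That is 12.8-fold over input (10.6 to 15.5) at 600 mM and 5.87-fold (4.77 to 7.27) at 800 mM, but 1.42-fold (1.08 to 1.85) with the 5mC antibody and 0.590-fold (0.438 to 0.788) with the 5hmC antibody. Over the next 66 kb the values were 0.538-fold, 0.659-fold, 0.829-fold and 0.785-fold, without the excess of captured DNA.

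On chromosome 17, positions 3005001 to 3038000 held 1342 reads at 600 mM, 425 at 800 mM, 93 in MeDIP, 105 in hMeDIP and 177 in input. The folds were 13.5 (11.6 to 15.9), 5.97 (5.001 to 7.16), 0.940 (0.723 to 1.21) and 0.598 (0.465 to 0.766). The following stretch to 3075000 was at 0.691-fold at 600 mM and 0.990-fold in MeDIP. Another stretch of this kind lay deeper, on chromosome 16 at 3231001 to 3241000, with 573 reads at 600 mM, 145 at 800 mM, 29 in MeDIP, 38 in hMeDIP and 59 in input. It was 17.3-fold over input (13.2 to 23.1) at 600 mM and 6.11-fold at 800 mM, with MeDIP at 0.879-fold (0.543 to 1.39). In all 3 stretches the 800 mM eluate held less than the 600 mM eluate, at 0.460-fold (0.403 to 0.523), 0.441-fold (0.395 to 0.493) and 0.353-fold (0.292 to 0.424). The marked reads changed the eluate folds little on chromosomes 3 and 17 (13.0-fold and 13.8-fold at 600 mM without them), and on chromosome 16 the fold was 21.4 without them. MeDIP lay on the other side of 1 without them on chromosomes 17 and 16, at 1.04-fold and 1.28-fold.

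Chromosomes 9 and 12 showed the second kind, with the 5mC antibody high as well. Over the first 39 kb of chromosome 9 there were 4668 reads at 600 mM, 4983 at 800 mM, 4081 in MeDIP, 2679 in hMeDIP and 2592 in input. Input was at 66.5 reads per kb here and at 2.16 reads per kb in the next 61 kb, and 60.8% of the input reads were marked. These 39 kb held 86.7% of the end's reads at 600 mM and 71.2% of those in input. The folds over input were 3.21 (3.06 to 3.37) at 600 mM, 4.78 (4.56 to 5.02) at 800 mM, 2.82 (2.68 to 2.96) in MeDIP and 1.04 (0.987 to 1.10) in hMeDIP. Without the marked reads they were 3.34, 4.96, 6.58 and 2.44, so that hMeDIP lay at the input level or well above it depending on these reads. The ratio of hMeDIP to MeDIP, which does not depend on them, was 0.370 (0.352 to 0.389). In contrast to chromosomes 3 and 17, the 800 mM eluate held 1.49-fold (1.43 to 1.55) of the 600 mM eluate.

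On chromosome 12 the first 25 kb held 186 reads at 600 mM, 152 at 800 mM, 166 in MeDIP, 63 in hMeDIP and 44 in input. The folds were 7.55 (5.41 to 10.7), 8.59 (6.11 to 12.3), 6.75 (4.81 to 9.63) and 1.44 (0.967 to 2.17), and hMeDIP was 0.214-fold (0.158 to 0.288) of MeDIP. Input was thin here at 1.76 reads per kb, and only 4.55% of its reads were marked, so this stretch, unlike that of chromosome 9, was neither dense in input nor rich in marked reads. A smaller stretch of the same kind was the second 25 kb of chromosome 5, at 4.81-fold, 5.36-fold, 3.85-fold and 1.32-fold from 26 input reads. On chromosome 4, positions 3005001 to 3019000 were at 6.75-fold, 4.43-fold, 3.14-fold and 0.833-fold, with hMeDIP at 0.265-fold (0.225 to 0.311) of MeDIP and 48.2% of the input reads marked. Without marked reads MeDIP was at 5.56-fold and hMeDIP at 1.47-fold. This stretch was not uniform. Positions 3006001 to 3013000 were at 14.7-fold at 600 mM and 2.09-fold in MeDIP, or 3.47-fold in MeDIP without marked reads. The bin at 3017001 to 3018000 was at 1.90-fold at 600 mM and 6.43-fold in MeDIP. In contrast to chromosome 9, the 800 mM eluate of the whole stretch held 0.657-fold (0.589 to 0.732) of the 600 mM eluate. The first 25 kb of chromosome 11 favoured the 5mC antibody over the capture, with 835 MeDIP reads (4.18-fold, 3.69 to 4.75) against 1.98-fold at 600 mM, 2.41-fold at 800 mM and 0.977-fold (0.841 to 1.14) in hMeDIP. Here 31.1% of the input reads were marked, and without them MeDIP was at 5.56-fold and hMeDIP at 1.30-fold.

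**Figure D5:**
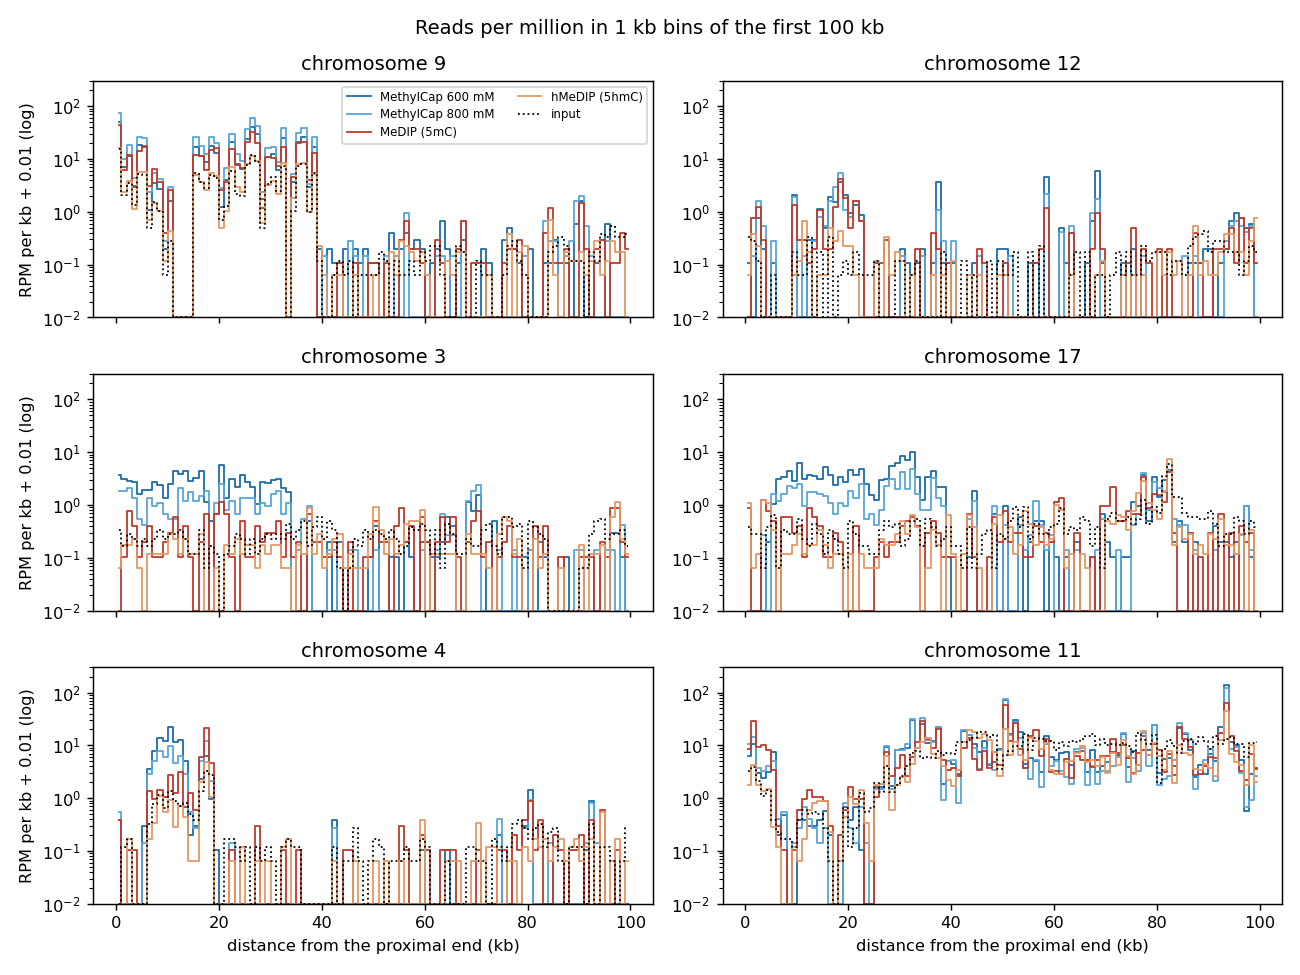
RPM (reads scaled to the library total) in 1 kb bins, plus 0.01 on a log axis, over the first 100 kb of 6 chromosome ends (distance from the start of the assembled sequence) in the 4 enriched libraries and input (dotted). On chromosomes 3 and 17 the eluates stand above MeDIP, hMeDIP and input until about 34 and 38 kb; on chromosome 9 all 5 libraries drop after 39 kb; on chromosome 11 input is dense from 25 kb on.

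The dense stretch of chromosome 11, positions 3025001 to 3100000, held 14111 input reads, or 188.1 reads per kb, which was 85.04% of the input reads of that end. The enriched libraries were dense there too, with 9004 reads at 600 mM, 5926 at 800 mM, 7096 in MeDIP and 10313 in hMeDIP. Relative to input they were at 1.14-fold, 1.04-fold, 0.899-fold and 0.737-fold, and without marked reads at 1.12-fold, 1.04-fold, 1.15-fold and 0.945-fold, so MeDIP changes sides with these reads. The density dropped to 10.6 input reads per kb over the next 200 kb, where hMeDIP was at 1.26-fold (1.19 to 1.34) and MeDIP at 0.806-fold (0.746 to 0.871). There the ratio of hMeDIP to MeDIP was 1.57 (1.46 to 1.69). Over the same distances the median over chromosomes in 25 kb windows ran from 0.767 to 1.03. The whole end of chromosome 11 was at 0.845 (0.823 to 0.868), below 1 like most ends.

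Single bins inside the dense stretch were extreme in the whole genome. The bin at 3093001 to 3094000 held 1480 reads at 600 mM, 653 in MeDIP and 825 in hMeDIP, the most of any of the 2440090 bins in each of these 3 libraries. At 800 mM it held 925 reads and was second, and in input it held 243 and was the 27th. It was 10.9-fold over input (9.49 to 12.5) at 600 mM, 9.47-fold (8.21 to 11.0) at 800 mM, and with the antibodies 4.81-fold (4.14 to 5.59, 5mC) and 3.42-fold (2.96 to 3.97, 5hmC). Because the files keep at most 1 read per position and strand in MeDIP, hMeDIP and input, and at most 2 in the eluates, such a bin approaches a ceiling: 61.9% of its 2000 positions and strands were occupied at 600 mM, 41.3% in hMeDIP and 12.2% in input. The bin at 3050001 to 3051000 was the second in the genome for MeDIP, with 598 reads, 764 at 600 mM, 576 at 800 mM, 381 in hMeDIP and 122 in input. Not all of the stretch was captured. The 5 member bins with most input reads all lay in it, between 3045001 and 3077000, with 302 to 340 input reads, 45 to 125 reads at 600 mM and 77 to 310 in hMeDIP. At 3045001 to 3046000 MeDIP was at 0.189-fold (0.130 to 0.267) and hMeDIP at 0.765-fold (0.648 to 0.902).

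To compare the ends with the genome bin by bin, enrichment of a bin was set at 3 or more for its RPM over that of input, after adding 0.5 RPM to both. The pseudocount pulls ratios of thinly covered bins toward 1. At 600 mM 219 of 4923 member bins (4.45%) were enriched, against 3.33% of all bins in the genome and 2.76% in the interior. The 800 mM eluate had 250 (5.08%), against 4.27% genome-wide, and MeDIP had 104 (2.11%), against 2.50%. In hMeDIP 42 bins (0.853%) were enriched, where the genome gave 1.93% and the interior 1.91%. The shares without marked reads were 4.64% against 3.40% genome-wide at 600 mM, 4.97% against 4.37% at 800 mM, 2.83% against 2.57% in MeDIP and 1.04% against 2.01% in hMeDIP. Taken over all ends, the shares were thus above the background in the eluates and below it in hMeDIP. In MeDIP the share was near it, on a side that depended on the marked reads. Chromosomes differed: the share at the end exceeded that of the interior on 13 of 19 at 600 mM and 10 at 800 mM. It did so on 8 in MeDIP and 5 in hMeDIP. Chromosome 17 held 36 and chromosome 3 held 33 of the 219 bins at 600 mM, chromosome 9 held 38 of the 250 at 800 mM, and chromosome 10 held 9 of the 42 in hMeDIP.

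Enriched bins were seldom shared by all libraries. Of the members 4 (0.0813%) were enriched in all 4, against 0.330% genome-wide, and 85 (1.73%) were enriched in both eluates but in neither antibody library, against 1.14%. Overlaps between pairs of libraries were counted in member bins only, so whether they differ from those of the genome was not determined. Both eluates shared 129 bins, 58.9% of those at 600 mM and 51.6% of those at 800 mM. MeDIP shared 45 bins with the 600 mM eluate (43.3% of the MeDIP bins and 20.5% of the 600 mM bins), and hMeDIP shared 21 with MeDIP (20.2% of the 104 MeDIP bins, and 21 of the 42 in hMeDIP). Comparing the antibodies directly, 43 members (0.873%) were at least 3-fold higher in MeDIP, against 0.406% genome-wide and 0.296% in the interior, and 14 (0.284%) at least 3-fold higher in hMeDIP, against 0.481%. The higher share of bins that favoured MeDIP was found on 13 of 19 chromosomes. Of the 14 bins that favoured hMeDIP, 9 were on chromosome 11.

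Runs of adjacent enriched bins were counted at the ends only, so they have no background from the interior or the genome. Their number also depends on how many bins were enriched in each library. The 600 mM eluate had 8 runs of 5 or more bins at the ends, the longest of 19 bins on chromosome 17. At 800 mM there were 3, the longest of 7 bins on chromosome 4 at 3006001 to 3013000 and on chromosome 9 at 3021001 to 3028000. MeDIP had 1, on chromosome 11 at 3001001 to 3006000, where 630 MeDIP reads were 6.75-fold over input (5.68 to 8.05) and hMeDIP was at 1.02-fold (0.819 to 1.27), or 10.7-fold and 1.61-fold without marked reads. In hMeDIP the longest run was 2 bins, on chromosome 7 at 3296001 to 3298000, with 99 reads against 12 of input (8.32-fold, 4.56 to 16.6). A 3-bin MeDIP run on chromosome 12 at 3017001 to 3020000 held 75 MeDIP, 76 and 71 eluate and 17 hMeDIP reads against 3 of input, so its folds are imprecise, with MeDIP at 44.7-fold (14.7 to 221.7).

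The 5 bins with the highest 5hmC ratio lay beyond the first 50 kb, as does most of the 300 kb. The first was on chromosome 15 at 3241001 to 3242000, with 88 hMeDIP and 42 MeDIP reads, 9 of input and 9 and 7 in the 600 mM and 800 mM eluates. Its hMeDIP signal was 9.86-fold over input (4.96 to 22.3) and its 600 mM signal 1.79-fold (0.628 to 5.08). A bin on chromosome 6 at 3273001 to 3274000 held 73 hMeDIP and 18 MeDIP reads, 1 and 0 eluate reads and 9 of input. The other 3 lay on chromosome 5 at 3214001 and on chromosome 10 at 3207001 and 3219001, with 51 to 65 hMeDIP reads. In the latter bin all 4 libraries were high, with 40 reads at 800 mM and 28 in MeDIP against 5 of input. On chromosome 10 at 3293001 to 3294000 hMeDIP had 34 reads where MeDIP had none, so hMeDIP was at least 6.39-fold higher, taking 3 reads as the floor for MeDIP. The exact interval began at 4.92-fold.

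At the other extreme, the 3 bins with the lowest ratio of hMeDIP to MeDIP were on chromosome 11. The bin at 3001001 to 3002000 held 307 MeDIP and 78 hMeDIP reads (0.143-fold, 0.110 to 0.184), with 74 of input. Next were bins at 3003001, with 105 and 25 reads, and at 3005001, with 36 and 5 reads. The latter was also the most strongly captured of the 3, with 77 reads at 600 mM against 7 of input. Bins with the highest ratio at 600 mM were on chromosome 16 at 3232001 (104 reads against 6 of input), on chromosome 4 at 3009001, 3010001 and 3012001 (129 to 234 reads) and on chromosome 17 at 3032001 (106 reads). In these 5 bins hMeDIP held 6 to 17 reads and lay within counting error of input.

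The salt steps separated a small number of bins. At least 3-fold more signal at 800 mM was found in 13 members (0.264%, against 0.221% genome-wide), and at least 3-fold more at 600 mM in 12 (0.244%, against 0.111%). Of the 13, 7 lay on chromosome 11. The bin at 3144001 to 3145000 held 93 reads at 800 mM and 1 at 600 mM, a ratio with an interval that began at 22.7-fold, with 3 MeDIP, 4 hMeDIP and 15 input reads. Close by, the bin at 3150001 to 3151000 held 54 and 4 reads. On chromosome 7 at 3181001 to 3182000 there were 64 reads at 800 mM, 5 at 600 mM, no MeDIP read, 2 hMeDIP reads and 5 of input, 17.8-fold higher at 800 mM (7.26 to 56.8). These bins released at high salt thus had no excess of either antibody. Among those released at low salt, the 600 mM and 800 mM eluates had 70 and 6 reads on chromosome 16 at 3236001, and 45 and 4 on chromosome 3 at 3011001. On chromosome 16 at 3106001 there were 36 and 3, with no input read.

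Per chromosome, the 800 mM eluate held less of the end relative to the 600 mM eluate than of the interior on 13 of 19, with a median of 0.915. That of the middle chromosome, 1, had an interval of 0.770 to 1.09. Without the marked reads the middle chromosome was 11, with more reads, at 0.939 (0.900 to 0.980), so whether the interval includes 1 depends on which chromosome is in the middle. Chromosomes 16 at 0.563 (0.492 to 0.644), 3 at 0.678 (0.607 to 0.757) and 17 at 0.761 (0.710 to 0.816) were lowest. These are the ends with the stretches at which MBD capture was high and MeDIP was at most 1.42-fold over input. The stretches, chosen after their values were seen, held 71.0%, 65.6% and 48.7% of the 600 mM reads of these ends. The ratios of the ends therefore rest largely on the same reads and are not a separate observation. Chromosome 9 was highest at 1.44 (1.34 to 1.54). The 600 mM eluate over MeDIP was 2.98-fold (2.70 to 3.30) higher at the end than in the interior on chromosome 3, 2.15-fold on chromosome 4, 2.12-fold on chromosome 16 and 1.86-fold on chromosome 17, with a median of 1.10. Leaving out marked reads changed these to 2.75-fold, 1.45-fold, 1.79-fold and 1.82-fold, which puts chromosome 4 below chromosome 13 at 1.76-fold, and the median was 1.03.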

How the data were processed

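Per the submitters' processing notes, the aligner was BWA 0.5.8 and the build mm9. The sources used here do not give how reads with several matches were placed or how duplicates were reduced. The deposited files list 1 read of 35 bp per line with a deposited count of 1, and a second deposited column of 0 or 1 whose meaning is not given.

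Reads were assigned by midpoint to 1 kb bins and scaled to the library total on chromosomes 1 to 19 and X (RPM) (Python 3.11.15, numpy 2.4.6, pandas 2.3.3). A ratio of 2 read counts has an exact Clopper-Pearson interval on the conditional binomial (scipy 1.17.1), and a ratio of 4 counts a normal interval on the log scale. The interval beside a median over chromosomes is that of the middle chromosome. Only counting error is covered, because PCR reads that carry no molecular identifier need not be independent molecules. Enriched bins had (RPM + 0.5)/(input RPM + 0.5) of 3 or more. The calling rule and the intervals were run on simulated independent counts in end bins with at least 5 input reads. This does not cover repeated reads, the cap on reads per position or thinner bins.

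Named were the chromosomes with the 3 highest and 2 lowest ratios of end to interior per library (3 and 3 for the antibodies), the 5 bins with the highest ratio per library (at least 5 input and 20 library reads), the 5 with most input reads, the 3 most different bins in each direction and the 3 longest runs. The chromosomes and bins given for the eluate and MeDIP comparisons beyond this, the first 50 kb, the stretches on single chromosomes and the classes by 600 mM reads were chosen after their values were seen. The ends and the comparison range were chosen with earlier results of these data known. No mm9 sequence or gene models were used, so repeats, CpG content and genes of the bins were not determined and no sequence is printed. Alternatives were tried for the marked reads, repeated positions, range, weighting of chromosomes, pseudocount, threshold, bin size and scaling.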

Additional observations from a re-analysis of the deposited data

How the results depend on the processing

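The values with no test are compared with their counting interval, and counts of bins with a factor of 1.5; of 88 alternative values 7 could not change, since the libraries hold no such reads, and of the other 81 values 50 stayed within these limits. For a median the limits are those of the middle chromosome, not a spread over chromosomes. Leaving out the marked reads kept the 10 results it could change within them, and keeping 1 read per position and strand the 5 it could change. Some of these results still changed their reading without the marked reads. The hMeDIP ratio went from 0.853 to 0.928, with an interval of 0.859 to 1.002. Enriched MeDIP bins went from 104 to 139, from a share under that of all bins to one above it. With the interior at 6 to 8 Mb the ratios of end to interior were 1.45 at 600 mM, 1.31 at 800 mM and 0.994 in hMeDIP, and the input density 0.754. With an end of 100 kb they were 1.42 and 1.30 in the eluates, 0.776 for hMeDIP over MeDIP and 0.572 for input. Summing all autosomes gave 1.44, 1.42 and 0.742 (600 mM, 800 mM, hMeDIP over MeDIP), and the input density turned to 1.10, or 1.07 without chromosome 9, against 0.742 without chromosome 11. Chosen after seeing the data, sums without chromosome 11 gave 1.63, 1.62, 1.33 (MeDIP), 0.956 (hMeDIP) and 0.720 (hMeDIP over MeDIP), and the 600 mM sum without chromosomes 9 and 11 was 1.37. Counts of enriched end bins (600 mM, 800 mM, MeDIP, hMeDIP) were 570, 614, 447 and 289 with a pseudocount of 0.1 RPM, 73, 45, 21 and 1 at 5-fold, and 390, 471, 200 and 80 with the median ratio set to 1. The end shares against all bins were 11.6 and 9.66%, 12.5 and 10.3%, 9.08 and 8.42%, and 5.87 and 7.43% with the first, 1.48 and 0.593%, 0.914 and 0.875%, 0.427 and 0.466%, and 0.0203 and 0.298% with the second, and 7.92 and 6.91%, 9.57 and 9.03%, 4.06 and 4.19%, and 1.63 and 3.43% with the last. The eluates stayed above and hMeDIP below all bins in these 3 settings, and MeDIP changed sides. The ratio of hMeDIP to MeDIP stayed below 1 in every alternative run. Depth limits single bins: a member bin held a median of 5 input reads. No paired analysis was possible because each group had 1 library.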
